A study of Mus musculus with 2 samples.

Results

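Messenger RNA of 41 genes of the germline was measured in Drosha knockout mouse embryonic stem (ES) cells: genes of germ cell identity, of the piRNA pathway and of meiosis. The members were chosen from a list of gene symbols, with earlier results of these data known. They were matched to the Ensembl gene IDs of the count files through GENCODE release M21. All 41 were found among the 43629 genes counted, and members without reads were kept. Poly-A RNA was sequenced in 2 libraries, A and B, of 1 group. Drosha is the nuclear ribonuclease that starts the maturation of most microRNAs, and the knockout was made with a paired CRISPR/Cas9 approach. Both libraries came from untreated 129/Ola cells of blastocyst origin at passage 7, grown in serum with LIF, a cytokine that keeps mouse ES cells undifferentiated. Their titles number the cells 1 and 2 while their source names are the same, so it is not known whether A and B are separate lines, and separate cultures are not stated. Both titles also carry the mark d5, which the labels do not explain. Cells with intact Drosha were not analysed here, so the levels below carry no statement of change.

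Most of these germline genes were transcribed in the knockout cells. In both libraries 35 of the 41 members reached 1 CPM, the count scaled to library size, or 85.4%. The same held for 57.8% of 21551 protein-coding genes. Since the members were chosen with earlier results known, this difference is a description only and was not tested. The median level of the members was 4.76 ± 0.376 TPM, a unit that also divides by gene length (SD of the library medians, n = 2), and that of all protein-coding genes 2.68 ± 0.0496. By exon union length the highest were Sycp3, Syce2, Dmrt1, Mael and Stra8, all above 50 TPM. The lowest were Spo11, Asz1, Tdrd6 and Nanos2, with at most 7 reads in either library. Values after ± are SD over both libraries (n = 2) throughout, and levels of different genes are compared in TPM unless reads or CPM are named.

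Germ cells descend from primordial germ cells, which arise in the early embryo and later enter meiosis, the divisions that halve the genome. PIWI proteins bind piRNAs, small RNAs that form without Drosha and silence transposons in the germline, and Tudor domain proteins gather PIWI proteins and their partners in germ granules. In meiosis a special cohesin and the synaptonemal complex hold paired chromosomes while programmed DNA breaks are repaired. In somatic cells a subset of these genes is kept silent by DNA methylation of promoters rich in CpG, while others, such as Kit and Prdm1, are active in many somatic lineages. In ES cells a Polycomb complex with the DNA-binding proteins Mga, Max and E2f6 also represses many of them; Mga with Max binds the E-box word CACGTG, and E2f6 binds E2F words such as GCGGGA.

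Because proteins of this Polycomb complex bind such words, CACGTG and GCGGGA were searched in the promoter windows that RefSeq gives on build GRCm38.p6. A window runs from 250 bases before a start of transcription to 50 after it. Of the members, 35 had at least 1 window; Dmrt1, Piwil2, Tex11, Tex15, Tdrd6 and Spo11 had none. CACGTG reads the same on both strands, GCGGGA was searched on both strands, and the words do not overlap each other in the stretches shown. The 250 bases before the start are given 5′ to 3′ for 6 members with an E-box word and for 2 members near 0 reads that hold neither word. All 6 hold both words in their windows, so the stretches are examples and do not tie the words to level. Stra8, at 54.4 TPM, holds neither word, and Tdrd9, at 0.548 TPM, holds CACGTG. Capitals mark CACGTG and GCGGGA or its complement.
Sycp3, chr10:88459337-88459586, plus strand: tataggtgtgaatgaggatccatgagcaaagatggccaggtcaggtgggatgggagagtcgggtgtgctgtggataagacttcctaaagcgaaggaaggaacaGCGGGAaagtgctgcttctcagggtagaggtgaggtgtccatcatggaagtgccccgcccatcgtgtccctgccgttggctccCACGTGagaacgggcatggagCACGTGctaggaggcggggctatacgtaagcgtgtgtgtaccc
Hormad1, chr3:95559427-95559676, plus strand: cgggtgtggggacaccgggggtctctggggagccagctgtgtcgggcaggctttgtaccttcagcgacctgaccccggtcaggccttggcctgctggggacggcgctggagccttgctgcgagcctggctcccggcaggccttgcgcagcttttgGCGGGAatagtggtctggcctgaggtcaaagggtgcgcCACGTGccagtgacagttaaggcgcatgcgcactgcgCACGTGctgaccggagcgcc
Mael, chr1:166238745-166238994, minus strand: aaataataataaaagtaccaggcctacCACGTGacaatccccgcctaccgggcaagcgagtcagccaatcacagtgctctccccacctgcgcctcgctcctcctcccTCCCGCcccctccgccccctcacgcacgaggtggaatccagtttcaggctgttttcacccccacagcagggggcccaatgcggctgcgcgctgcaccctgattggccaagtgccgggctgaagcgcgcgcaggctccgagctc
Stag3, chr5:138280259-138280508, plus strand: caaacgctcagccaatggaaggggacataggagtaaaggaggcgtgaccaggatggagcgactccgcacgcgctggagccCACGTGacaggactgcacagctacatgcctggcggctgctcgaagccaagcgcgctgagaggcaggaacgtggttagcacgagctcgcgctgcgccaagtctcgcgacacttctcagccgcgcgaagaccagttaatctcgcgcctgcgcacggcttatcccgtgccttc
Ddx4, chr13:112652311-112652560, minus strand: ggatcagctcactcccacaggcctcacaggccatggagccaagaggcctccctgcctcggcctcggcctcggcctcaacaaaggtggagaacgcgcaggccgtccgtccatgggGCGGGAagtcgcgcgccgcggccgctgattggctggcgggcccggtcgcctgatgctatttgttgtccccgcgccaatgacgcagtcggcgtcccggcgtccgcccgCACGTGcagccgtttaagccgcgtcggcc
Sycp1, chr3:102936101-102936350, minus strand: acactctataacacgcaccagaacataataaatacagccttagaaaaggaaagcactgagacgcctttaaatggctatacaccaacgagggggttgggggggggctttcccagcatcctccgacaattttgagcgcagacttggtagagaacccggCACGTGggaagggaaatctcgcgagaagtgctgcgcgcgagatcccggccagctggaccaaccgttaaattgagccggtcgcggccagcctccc
Asz1, chr6:18109062-18109311, minus strand: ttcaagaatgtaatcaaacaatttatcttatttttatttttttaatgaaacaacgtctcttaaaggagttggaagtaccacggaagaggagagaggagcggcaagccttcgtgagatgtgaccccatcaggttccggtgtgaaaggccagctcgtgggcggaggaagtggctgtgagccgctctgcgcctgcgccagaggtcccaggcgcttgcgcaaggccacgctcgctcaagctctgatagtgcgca
Nanos2, chr7:18987274-18987523, plus strand: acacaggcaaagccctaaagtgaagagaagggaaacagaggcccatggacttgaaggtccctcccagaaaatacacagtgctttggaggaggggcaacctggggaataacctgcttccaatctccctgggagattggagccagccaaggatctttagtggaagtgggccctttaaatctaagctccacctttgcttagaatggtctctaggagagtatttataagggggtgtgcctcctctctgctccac
Sycp3 held the E-box word 64 and 43 bases before its start, and Hormad1 held it 57 and 20 bases before. In Ddx4 it lay 29 bases before the start, in Sycp1 94, in Stag3 170 and in Mael 223. The GCGGGA words of Stag3 and Sycp1 lie across or after the start, outside the stretches shown.

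The E-box word stood in a window of 13 of 35 members, or 37.1%, against 9.24% of 16317 protein-coding genes with a window. Besides the 6 shown these were Syce2, Mov10l1, Pld6, Taf7l, Piwil1, Tdrd1 and Tdrd9. Within the last 100 bases before the start it stood in 9 members (25.7%, against 4.31% of protein-coding genes). Among genes with 1 window each the shares were 32.1% of 28 members and 8.02% of protein-coding genes. GCGGGA stood in 14 members (40%, against 29.4%) and both words in 7 (20%, against 3.71%). Both words hold CpG dinucleotides, and CpG content differed between the sets: the median CpG observed over expected ratio was 0.701 in members and 0.636 in protein-coding genes. Among genes with a ratio from 0.5 to 1.1 the E-box word stood in 12 of 26 members (46.2%) and in 12.6% of protein-coding genes, and GCGGGA in 13 of 26 (50%) and 44.1%. A match is a run of letters and not a shown binding site.

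**Figure D1:**
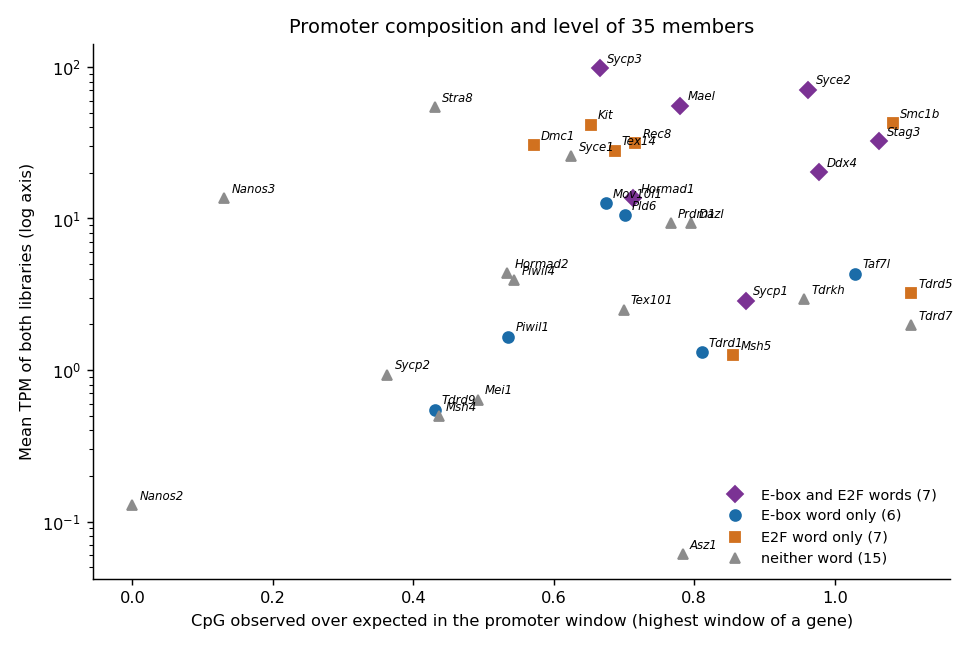
CpG observed over expected ratio of the promoter window (x axis; the highest window where a gene has several) and mean TPM of both libraries (y axis, log scale) for the 35 members with a window. Each point is a gene and its shape tells which words the windows hold; the 7 genes with both words lie between Sycp1 at 2.87 TPM and Sycp3 at 98.0 TPM, and Asz1 and Nanos2 at the bottom hold neither.

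Levels were set against these words. The 14 members with GCGGGA had a median of 30.9 TPM (1.25 to 98.0), and the 21 without it one of 2.94 TPM (0.0606 to 54.4). Over all protein-coding genes with a window the medians were 13.5 TPM with GCGGGA and 0.937 without. The 13 members with CACGTG had a median of 12.6 TPM (0.548 to 98.0) and the 22 others one of 4.13 (0.0606 to 54.4), where all protein-coding genes had 12.7 and 2.89. Tdrd9, the lowest member with CACGTG, held it 165 and 95 bases before its start. The split by either word thus ran the same way in the members as in protein-coding genes at large. The 15 members with neither word had a median of 2.94 TPM. The highest of these were Stra8 at 54.4 ± 2.0 TPM, Syce1 at 25.8 ± 0.0832 TPM and Nanos3 at 13.7 ± 0.115 TPM, the last with a CpG ratio of 0.131. The 250 bases searched before the start of Nanos3, 84176553 to 84176802, lie inside the GENCODE gene, 84173731 to 84185217. Such windows inside the gene also occur for other members, among them Prdm1, Piwil1 and Mei1. Which start these cells used was not tested.

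Library A held 29264632 gene counts and B 42322129. The limit used for a count of 0 was the level of 3 reads, 0.102 CPM in A and 0.0711 in B. Intervals and these limits cover counting error only. Drosha itself had 4865 reads in A and 7023 in B; counts summed over the gene hold no exon detail and are no check of the knockout. The ES cell label, given for A alone, was set against 10 markers, all of which reached 1 CPM in both libraries, with Dppa5a at 10136 ± 263 TPM, Pou5f1 at 1399 ± 33.0 TPM and Zfp42 at 892 ± 5.27 TPM. Of 10 gonadal somatic cell markers Inha (2.98 ± 0.354 TPM) and Star (1.16 ± 0.258) did. Insl3, the second highest by TPM at 1.31 ± 0.851, did not, and Foxl2 and Hsd3b1 had 0 reads. Of 10 feeder fibroblast markers 5 did, led by Fn1 (346 ± 4.75 TPM), Thy1 (38.6 ± 0.107) and Acta2 (1.47 ± 0.0700), while the other 7, the collagen genes among them, lay between 0.132 and 0.920 TPM. Summed, the gonadal markers had 6.82 TPM in A and 5.35 in B, and the fibroblast markers 393 and 385, nearly all of it from Fn1 and Thy1; their part in the members' levels was not tested. In bulk RNA a few cells with much of a transcript and many cells with little cannot be told apart.

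Of the 9 genes of germ cell identity 8 reached 1 CPM in both libraries, and the median over the 9 was 13.7 ± 0.115 TPM. The highest was Dmrt1 (ENSMUSG00000024837, chromosome 19, 25505618 to 25604329 on GRCm38), a transcription factor needed in the testis. Library A held 1902 reads of Dmrt1 and library B 2677 (67.1 and 64.8 TPM), a level above that of 90.1% of protein-coding genes. Library A held 1043 reads of Stra8 and library B 1601 (52.9 and 55.8 TPM). Stra8 responds to retinoic acid and opens the way into meiosis.

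Kit, the receptor for stem cell factor on primordial germ cells and spermatogonia, had the most reads of any member, counted without regard to gene length. It stood seventh by TPM on the exon union of 8911 bases. The longest transcript of Kit is 5241 bases, so this rank depends on the length used. Library A held 4132 reads of Kit and library B 5781 (42.4 and 40.8 TPM). The RNA helicase gene Ddx4, the mouse Vasa and a standard marker of germ cells, had 654 reads (A) and 985 reads (B), or 19.9 TPM in A and 20.5 in B. The RNA-binding factor gene Dazl, which makes primordial germ cells competent for gamete formation, had 364 reads (A) and 601 reads (B), or 8.72 TPM in A and 9.88 in B. The interval of Dazl from counting error was 7.85 to 9.67 TPM in A and 9.11 to 10.7 in B, so its level lay under that of Ddx4 in both libraries.

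The Nanos genes split. Library A held 137 reads of Nanos3 and library B 202 (13.6 and 13.7 TPM), while Nanos2 had only 3 reads in A and 2 in B. Nanos3 protects primordial germ cells and Nanos2 guides male germ cells and keeps spermatogonial stem cells. The level of 3 reads of Nanos2 is 0.176 TPM in A and 0.121 in B, so its reads are at or under the limit set by depth. Of the exon bases of Nanos2 766 of 1563 are shared with an antisense transcript that was not used here. Prdm1, the repressor that sets up primordial germ cells, had 9.28 ± 0.656 TPM, and the X-linked Taf7l, a germ cell relative of a general transcription factor subunit, had 4.33 ± 0.294 TPM.

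The 4 Tex genes all reached 1 CPM and differed widely in level. Library A held 1529 reads of Tex14 and library B 2244 (27.9 and 28.1 TPM). Tex14 makes the bridges that join germ cells to each other. Tex11, an X-linked gene of meiotic recombination, had 4.76 ± 0.376 TPM, and Tex101, which codes for a surface protein of germ cells, had 2.49 ± 0.0117 TPM. Tex15, which acts with the piRNA pathway in silencing transposons, was the lowest of them at 1.52 ± 0.191 TPM.

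**Figure D2:**
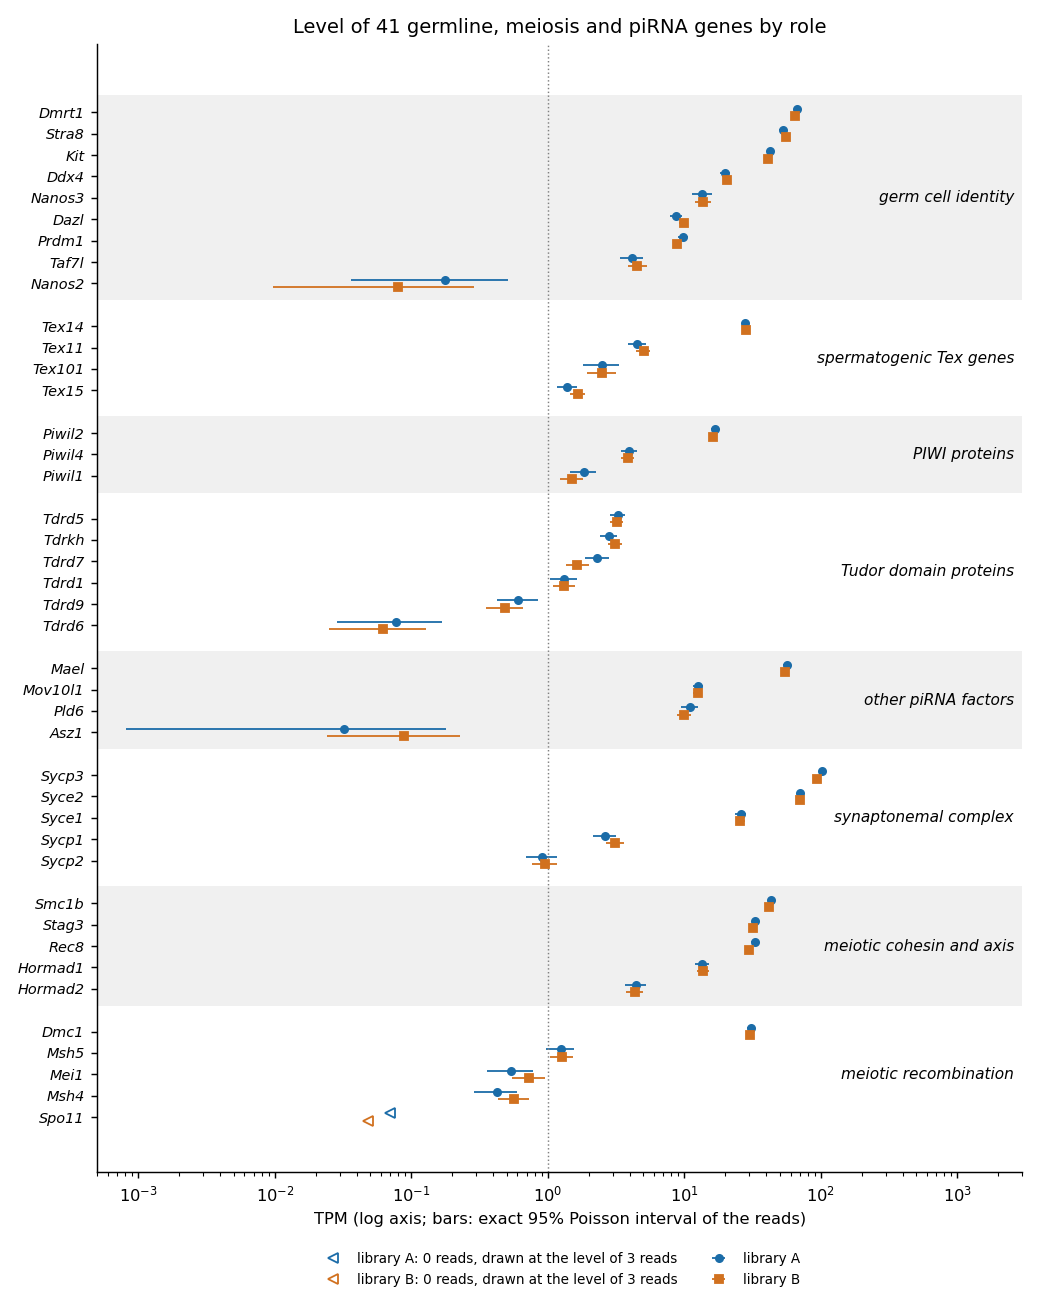
TPM of each member in library A (circles) and library B (squares) on a log axis, by role, with exact 95% Poisson intervals of the read counts; open triangles mark 0 reads and are drawn at the level of 3 reads, and the dotted line marks 1 TPM. Most members lie at nearly the same level in both libraries, from Sycp3 at the top to Nanos2, Tdrd6, Asz1 and Spo11 far to the left.

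In the piRNA pathway 10 of 13 members stood at 1 CPM or more in A and B, and the median over the 13 was 2.94 ± 0.221 TPM. All 3 PIWI genes were detected and stood in a clear order. Library A held 970 reads of Piwil2 and library B 1377 (16.8 and 16.4 TPM). Piwil4 followed at 3.93 TPM in A and 3.87 in B, and Piwil1 at 1.83 TPM in A and 1.5 in B. The 95% Poisson intervals in A were 15.8 to 17.9 for Piwil2, 3.44 to 4.47 for Piwil4 and 1.46 to 2.25 for Piwil1, and in B 15.5 to 17.2, 3.47 to 4.31 and 1.22 to 1.82, with no overlap in either. Piwil2 is the earliest of them in the mouse germline, Piwil4 takes piRNAs to the nucleus of fetal male germ cells, and Piwil1 acts from the pachytene stage of meiosis on.

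Tudor domain genes were the lowest of the 3 piRNA groups. Their median was 1.64 ± 0.224 TPM, and 4 of 6 reached 1 CPM in both libraries. Tdrd5 (3.22 ± 0.0411 TPM) and Tdrkh (2.94 ± 0.221 TPM) led. Tdrkh anchors PIWI proteins at mitochondria for the trimming of piRNAs, and 36.7% of its exon bases are shared with the antisense gene Oaz3, which had 3 reads in each library. Tdrd7 had 1.97 ± 0.452 TPM and Tdrd1, a scaffold for Piwil2, had 1.31 ± 0.00290 TPM. The helicase gene Tdrd9 stood at the 1 CPM line, with 1.23 CPM in A and 0.995 in B, and Tdrd6, a component of germ granules of spermatids, had 6 reads in A and 7 in B.

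Of the other piRNA factors Mael stood far above the rest. Library A held 1066 reads of Mael and library B 1510 (56.3 and 54.7 TPM), a level above that of 88.2% of protein-coding genes. Mael codes for Maelstrom, needed for transposon silencing in the male germline. The helicase gene Mov10l1, which hands piRNA precursors to PIWI proteins, had 12.6 ± 0.112 TPM, and Pld6, which codes for a nuclease on mitochondria that cuts them, had 10.5 ± 0.656 TPM. Their partner Asz1, a mitochondrial scaffold of the same step, had 1 read in A and 4 in B.

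Meiotic genes held both the highest level of all members and the only one with 0 reads. At 1 CPM or more in A and B stood 13 of 15 members, and the median over the 15 was 13.6 ± 0.141 TPM. In the synaptonemal complex the parts did not stand at a common level. Library A held 1405 reads of Sycp3 and library B 1895 (102 and 94.2 TPM), the highest of all 41 members. Sycp3 (ENSMUSG00000020059, chromosome 10, 88459569 to 88473236) codes for a lateral element protein along the chromosome axis. Of its exon bases 660 of 1264 are shared with Chpt1 on the opposite strand, with 547 reads (A) and 946 (B), and no source used here states which strand setting the counter had.

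The central element genes Syce2 and Syce1 had 70.6 TPM in A and 70.5 in B and 25.9 TPM in A and 25.8 in B respectively. Sycp1, whose protein spans the gap between paired chromosomes, had 102 reads (A) and 176 reads (B), or 2.63 TPM in A and 3.11 in B. Sycp2, the partner of Sycp3 in the lateral element, had 59 reads (A) and 91 reads (B), or 0.905 TPM in A and 0.958 in B. The 95% Poisson intervals of Sycp2, 0.689 to 1.17 TPM in A and 0.771 to 1.18 in B, lay far below those of Sycp3, 96.5 to 107 and 90.0 to 98.5.

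The cohesin subunits of meiosis, which replace mitotic ones along the chromosome axis, followed. Library A held 1897 reads of Smc1b and library B 2711 (42.9 and 42.1 TPM). Library A held 2048 reads of Stag3 and library B 2930 (32.7 and 32.1 TPM). Library A held 1052 reads of Rec8 and library B 1401 (32.8 and 30.0 TPM). By exon union length the intervals of Stag3 and Rec8 overlapped in both libraries, and those of Smc1b lay above both. The intervals do not cover the choice of length, on which this order depends. Exon union and longest transcript were 4047 and 4047 bases for Smc1b. They were 5733 and 4669 for Stag3, and 2935 and 2184 for Rec8. All 3 levels were above those of at least 80.5% of protein-coding genes. The axis proteins Hormad1 and Hormad2, which watch over pairing, had 13.6 ± 0.141 and 4.37 ± 0.0702 TPM.

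Among recombination genes Dmc1 stood apart from the rest, and the group had a median of 0.635 ± 0.133 TPM. Library A held 816 reads of Dmc1 and library B 1165 (30.7 and 30.1 TPM). Dmc1 is the meiotic strand exchange protein. Spo11, which makes the DNA breaks that Dmc1 helps to repair, had 0 reads in both libraries, which allows up to 0.0700 TPM in A and 0.0481 in B. The crossover factors Msh5 and Msh4, which act as a pair, had 1.25 ± 0.0139 and 0.495 ± 0.0991 TPM, and Mei1, needed for break formation, had 0.635 ± 0.133 TPM. Mei1 passed 1 CPM in B alone (0.954 CPM in A and 1.30 in B).

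The plot of classes of level shows where the members differ from protein-coding genes at large. Below 0.1 TPM lay 3 members (7.32%) and 30.0% of protein-coding genes, and from 1 to 10 TPM 15 members (36.6%) and 20.5%. At 50 TPM or more the shares were 12.2% and 13.1%. The members, chosen with earlier results known, were thus less frequent below 0.1 TPM and not more frequent at 50 TPM or more. In all, they took 0.0836% of the counts of A and 0.0827% of those of B.

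**Figure D3:**
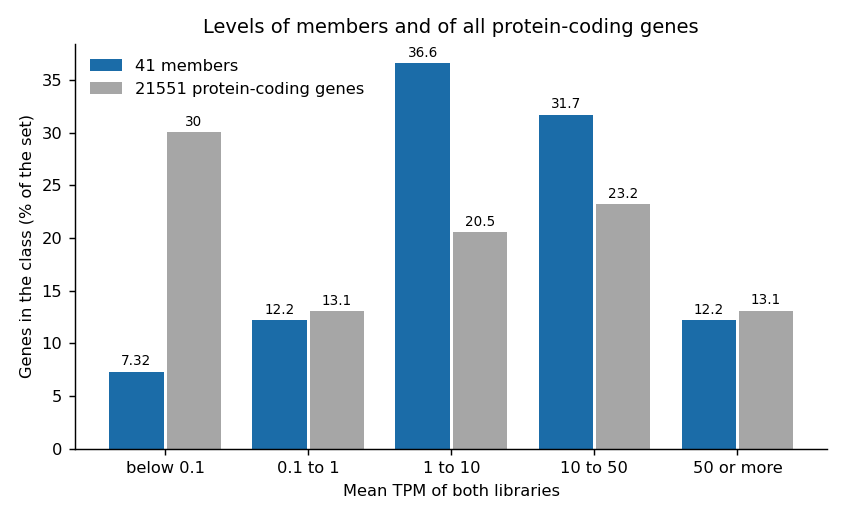
Share of the 41 members and of 21551 protein-coding genes (y axis, percent of each set) in 5 classes of mean TPM (x axis). The members are less frequent below 0.1 TPM (7.32% against 30.0%) and more frequent from 1 to 50 TPM.

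Several members have a paralog that works in all dividing cells, and these pairs, chosen after the values were seen, put the levels on a common scale. Rec8 stood at 7.92% ± 0.622 of the level of Rad21, the mitotic subunit in the same position of cohesin, and Smc1b at 42.9% ± 0.117 of Smc1a. Stag3 was at 175% ± 3.10 of Stag1 and 91.7% ± 5.43 of Stag2. Taf7l stood at 3.74% ± 0.217 of Taf7 and Mov10l1 at 11.8% ± 0.368 of Mov10. Of these 6 pairs only that of Stag3 and Stag1 had the germline gene at the higher level. Length-scaled levels of different genes still depend on the gene models.

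**Figure D4:**
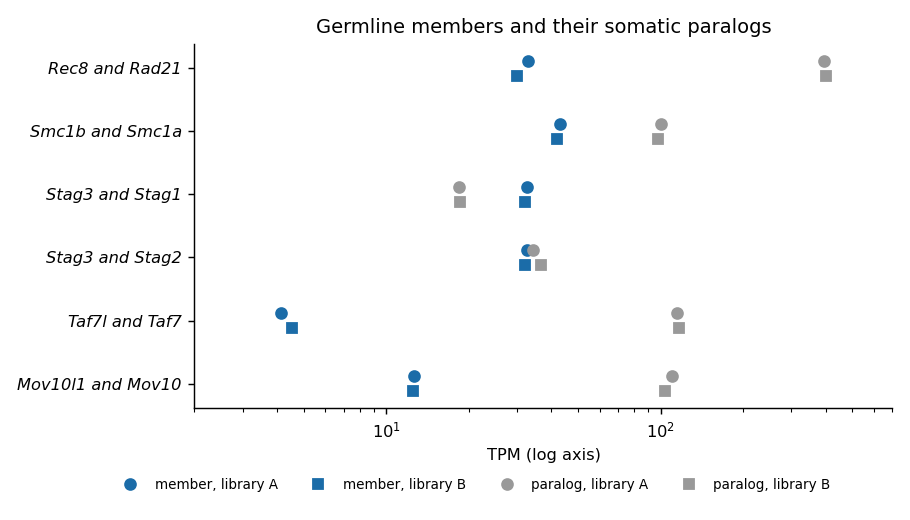
TPM (log axis) of members (blue) and of their paralogs outside the germline (grey) in library A (circles) and B (squares). Rec8 lies at 31.4 TPM against 397 for Rad21, whereas Stag3 at 32.4 TPM lies above Stag1 at 18.5.

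Many other germline genes, from lists that hold no member, were transcribed too. These lists were also chosen with earlier results of these data known. Of all protein-coding genes 57.8% reached 1 CPM in both libraries. Of 13 matched genes of the piRNA pathway 9 reached 1 CPM in both libraries (median 11.2 ± 0.0570 TPM), led by Tex19.1 (102 ± 4.28), Tdrd12 (53.2 ± 1.15) and D1Pas1 (45.6 ± 1.67), whose reads are uncertain because it closely resembles another helicase gene. Of 26 matched meiotic genes 21 did (median 9.80 ± 0.363), led by Mnd1 (93.9 ± 0.281), Sun1 (67.5 ± 0.957) and Hsf2bp (65.8 ± 0.0115); Sun1 is a nuclear envelope gene of many cell types. Of 22 further germ cell genes 17 did (median 12.7 ± 0.343), led by Rhox5 (530.3 ± 8.5), Uchl1 (206 ± 11.1) and Sall4 (131 ± 3.89). Genes listed for oocytes and late spermatids were mostly near 0. The median of the 16 was 0.182 ± 0.0179 TPM, and 2 reached 1 CPM in both libraries. These were the egg coat gene Zp3 (17.3 ± 2.54 TPM) and the sperm enzyme gene Ldhc (2.32 ± 0.325 TPM), followed by Figla at 1.00 ± 0.178 TPM, while the sperm nuclear protein genes Prm1, Prm2 and Tnp1 and the sperm genes Acrv1 and Pgk2 had 0 reads in both libraries.

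Known repressors of germline genes were present as RNA. All 22 on that list reached 1 CPM in both libraries, against 57.8% of protein-coding genes, with a median of 61.0 ± 0.132 TPM. The highest were the maintenance methylation factor Uhrf1 (254 TPM in A and 246 in B), Wdr5 (245 ± 5.38) and the methyltransferase Dnmt1 (149.8 ± 0.229). Mga, Max and E2f6, whose words were searched in the promoters, had 40.3 ± 1.30, 69.6 ± 1.25 and 10.2 ± 0.136 TPM; Max and E2f6 are named for that reason. RNA levels do not show protein or binding.

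No member passed the test between the libraries. For each of 18198 genes with at least 10 reads, B's part of the reads was set against B's part of the scaled library sizes, and 38 members were among them (all but Nanos2, Asz1 and Spo11). By the two-sided exact binomial test with Benjamini-Hochberg adjustment over all genes 0 of the 38 were called, against a background of 2.29% of genes called. With a 2-fold difference asked for as well the count was also 0, against 0.0879%. At an unadjusted p under 0.05 there were 2 members, Tdrd7 and Dazl (5.26%, against 12.4% of all genes), and edgeR's exact test, run with a coefficient of variation set to 0.1, called 0 members and 1 of all 18198 genes. This test compares 2 libraries of 1 group, knows no spread between cultures, and says nothing of Drosha.

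Ratios were close to 1 for the members with many reads. The median log2 ratio of B over A was 0.0051 over the 38 members and -0.00084 over all genes tested, and 19 members were higher in each library. Kit had a log2 ratio of -0.041 (95% binomial interval -0.10 to 0.02). Tdrd7 had the ratio farthest from 0 among members with at least 100 reads, -0.45 (-0.87 to -0.04), with 99 reads (A) and 104 reads (B) and an adjusted exact binomial p of 0.300. Dazl had 0.20 (adjusted exact binomial p = 0.360). The interval stayed within 1.5-fold for 29 members and within 2-fold for 35. For Msh4, Mei1 and Tdrd6 it reached past 2-fold, so this depth does not settle whether these differed 2-fold. Ranked by TPM within each library, no member moved by more than 2 places, and the same 10 members led in both.

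**Figure D5:**
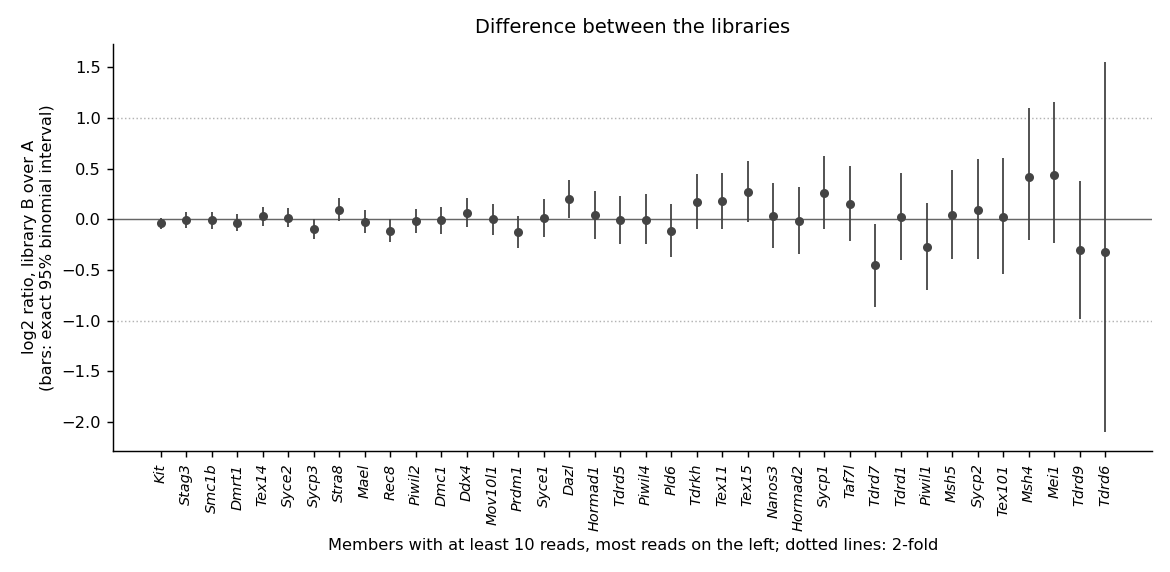
Log2 ratio of library B over A (y axis) with exact 95% binomial intervals for the 38 members with at least 10 reads, ordered by reads from left to right; dotted lines mark 2-fold. The points lie near 0 on the left and the intervals widen to the right as reads fall, with Tdrd7 at -0.45 and Tdrd6 the least certain.

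In the lists set beside the members a few genes were called in the same exact binomial test. Tuba3a of the germ cell list was lower in B (log2 ratio -0.14, adjusted p = 0.0435), with reads that are uncertain because of the like gene Tuba3b. Mga was higher in B (0.084, adjusted p = 0.0172). With the trend with GC content removed neither passed, with adjusted exact binomial p = 0.413 for Tuba3a and 0.505 for Mga. The piRNA, meiotic, oocyte and late spermatid, and gonadal lists had 0 calls among 12, 24, 7 and 4 genes tested. Of all genes tested 2.29% were called, so 0 calls in lists this short says little. Of the 10 ES cell markers tested Dppa5a (0.071) and Tdgf1 (0.051) were higher and Utf1 (-0.22) lower in B. Tdgf1 had an adjusted exact binomial p of 0.249 once the GC trend was removed. Of the 9 fibroblast markers tested Col3a1 (-2.24), Postn (-1.93), Col1a2 (-1.67) and Dcn (-1.60) were lower in B. With the assumed coefficient of variation in edgeR's exact test, of these 9 genes only Col3a1 was still called.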

How the data were processed

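Poly-A RNA of 2 libraries of Drosha knockout ES cells was measured; the protocol was reverse-stranded and used the TruSeq kit, per the labels' protocols. The authors deposited, for either library, a file of raw counts by Ensembl gene ID. STAR 2.4.2a, featureCounts 1.4.5-p1 and mm10 are named without roles, per the submitters' processing notes. No source used here gives the strand setting, the annotation release or how reads with several matches were treated. GENCODE M21 on GRCm38, the build of mm10, gave symbols and exon lengths for 97.5% of 43629 gene IDs.

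CPM used TMM factors from genes with at least 10 reads (edgeR 4.0.16, R 4.3.3); TPM used the union of a gene's exons. Log2 ratios add 0.5 reads to each count. Python 3.11.15 with scipy 1.17.1 ran the two-sided exact binomial test (Benjamini-Hochberg over all genes tested, threshold 0.05). This test was tried on simulated Poisson counts only. These hold no spread between libraries beyond counting error, so they cannot show how the test behaves under such spread. With 1 library on each side there is no replicate check, and p-values weigh counting error only. Members and lists were chosen with earlier results of these data known. Named genes were all members, the 3 highest of each other list by TPM, and called genes. Genes at 0 were named in the lists of cell type markers (ES cell, oocyte and late spermatid, fibroblast and gonadal). Tdrd10, Spata22 and Ankrd31 had no match in the files. Alternatives were scaling by total counts or DESeq2 1.42.0 size factors, other filters, thresholds, added reads and gene lengths, each library alone, an assumed coefficient of variation of 0.1 in edgeR's exact test, and removal of the trend with GC content. The paralog of 1 member is not reported here.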

Additional observations from a re-analysis of the deposited data

How the results depend on the processing

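The count of members at 1 CPM in both libraries was 35 by TMM, by total counts and by DESeq2 size factors, 37 at 0.5 CPM, 23 at 5 CPM and 33 at 1 TPM. In either library alone it was 36. The median level of 4.76 TPM was 4.50 in A alone and 5.03 in B alone, 5.15 with the length of the longest transcript, 6.64 with protein-coding genes alone in the sum, and 9.29 over members with at least 10 reads, which leaves out 3 of the lowest. The count of members called between the libraries was 0 under each of the 6 alternatives run, and no single member crossed the threshold under the 6 ratio alternatives. Of the latter, the change in added reads alters the ratio alone and cannot change a call. The lowest adjusted exact binomial p of any member ranged from 0.247 (Sycp3, GC trend removed) to 0.402 (Tdrd7, filter of 1 read). Over all genes 417 were called, and 144 with the GC trend removed, 360 with a filter of 1 read, 441 with one of 50, and 1 by edgeR's exact test at a coefficient of variation set to 0.1. For the 9 called genes of the other lists the same alternatives were run after seeing the data, except that Postn has too few reads for the filter of 50: Tuba3a also lost its call with DESeq2 size factors (adjusted exact binomial p = 0.0521) and with a filter of 1 read (0.0592). The median log2 ratio of the members ranged from -0.0060 with the GC trend removed to 0.011 with a filter of 50 reads. Depth limits the ratios of members with under 100 reads and any statement on Nanos2, Asz1, Tdrd6 and Spo11 below the level of 3 reads. No paired analysis was possible because there is 1 group.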

Other observations

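The promoter words were also searched in germline genes that are no members. Of 44 genes of the other piRNA, meiotic and germ cell lists with a promoter window, 10 held CACGTG (22.7%, against 9.24% of protein-coding genes) and 22 held GCGGGA (50%, against 29.4%). Their median CpG ratio was 0.709, and 9 of the 44 (20.5%) had a ratio below 0.5. Among protein-coding genes with a ratio from 0.5 to 1.1, 12.6% held CACGTG and 44.1% GCGGGA. The 44 were not limited to that band, so the sets are unlike, and for GCGGGA the shares are near each other. Within the last 100 bases before a start 7 of the 44 held CACGTG (15.9%, against 4.31% of protein-coding genes).

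The members were spread over 18 chromosomes. Chromosomes 3 and 15 held 4 each, and those of 15 (Dmc1, Mei1, Smc1b and Mov10l1) ranged from 0.635 ± 0.133 TPM for Mei1 to 42.5 ± 0.581 TPM for Smc1b.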
